A study of Mus musculus with 8 samples.

Results

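The genes described here were the metallothioneins Mt1 and Mt2 and the heat shock genes Hspa1a, Hspa1b, Hspa8, Hsph1, Hsp90aa1, Dnajb1 and Hspb1. They were taken by gene symbol from the authors' results table, and all 9 were found among its 23606 genes. They were picked because earlier results of these same libraries had shown them, so their Hypo and Ctrl values are given as a description. They entered the fit over all genes, but no call of a member is used as evidence. RNA was sequenced in 8 libraries made from 4T1 cells, a line from a mouse mammary carcinoma that the labels give as wild type. The 4 Hypo libraries (replicates 2 to 5) came from cells given the β-catenin stabilizer SKL2001 together with decitabine, a nucleoside drug that blocks the upkeep of DNA methylation. The 4 Ctrl libraries (replicates 1 to 4) came from cells given SKL2001 without decitabine. Both treatments ran overnight, both groups carried SKL2001, and the series analysed here had no group free of it and no heated or metal-treated group.

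Metallothioneins are small cysteine-rich proteins that bind zinc and copper, and their genes are switched on by the zinc-sensing factor Mtf1 through short promoter motifs called metal response elements. Heat shock proteins are chaperones that keep other proteins folded, and the inducible ones are switched on by Hsf1 through heat shock elements when unfolded proteins build up. Both families are standard readouts of stress in cultured cells, and both respond to handling, serum, metals and temperature.

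In the GRCm38 annotation the pair of metallothioneins lay side by side on chromosome 8, Mt2 at 94172664-94173568 and Mt1 at 94179082-94180327, both on the plus strand with 3 exons each. Hspa1b (34956436-34959238) and Hspa1a (34969190-34972156), which encode nearly the same inducible Hsp70, were single-exon neighbours on the minus strand of chromosome 17. Hspb1, encoding the small heat shock protein Hsp25, had 3 exons at 135887919-135889563 on chromosome 5. Hsph1 (chromosome 5, 149614287-149636376), Hspa8 (chromosome 9, 40800984-40810087), Hsp90aa1 (chromosome 12, 110690605-110702728) and Dnajb1 (chromosome 8, 83608193-83612653) were spread over the genome.

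Promoter windows of 300 bases (250 before and 50 after the start site, RefSeq, GRCm38.p6) were found for 7 of the 9 genes, all but Hspa8 and Hsp90aa1. The metallothionein windows are shown because they carry the motif that defines the pair. Capitals mark metal response elements, searched as TGCACNC or TGCGCNC on both strands, with matches on the minus strand reading GNGTGCA or GNGCGCA.
Mt1: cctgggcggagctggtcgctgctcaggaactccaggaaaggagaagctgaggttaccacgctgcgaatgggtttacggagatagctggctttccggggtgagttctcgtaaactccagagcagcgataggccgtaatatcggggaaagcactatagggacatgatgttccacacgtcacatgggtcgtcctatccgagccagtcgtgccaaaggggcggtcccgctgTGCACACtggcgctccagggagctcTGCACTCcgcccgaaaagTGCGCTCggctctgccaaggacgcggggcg
Mt2: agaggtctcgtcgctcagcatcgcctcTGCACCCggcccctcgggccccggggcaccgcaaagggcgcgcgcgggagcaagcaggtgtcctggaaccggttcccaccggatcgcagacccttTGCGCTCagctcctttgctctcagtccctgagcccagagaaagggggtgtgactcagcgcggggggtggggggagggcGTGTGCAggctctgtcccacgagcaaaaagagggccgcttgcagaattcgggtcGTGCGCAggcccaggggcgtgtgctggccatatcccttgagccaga
The Mt1 window (chr8:94178839-94179138, plus strand) held 3 matches and the Mt2 window (chr8:94172368-94172667, plus strand) 4. Among 32817 promoter windows of the same length, 1.97% held 3 or more and 0.518% held 4 or more. The start site of the annotated Mt2 transcript lay 46 bases downstream of the one this window was built on.

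The windows of Hspa1a and Hspa1b are shown because the genes are near copies with very different read numbers. Capitals mark the 4 positions at which they differ.
Hspa1a: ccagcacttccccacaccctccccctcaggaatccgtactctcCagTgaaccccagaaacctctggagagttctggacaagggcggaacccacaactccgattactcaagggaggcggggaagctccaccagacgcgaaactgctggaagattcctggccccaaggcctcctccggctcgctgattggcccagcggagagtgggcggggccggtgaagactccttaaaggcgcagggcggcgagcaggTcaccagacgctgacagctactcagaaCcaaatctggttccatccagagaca
Hspa1b: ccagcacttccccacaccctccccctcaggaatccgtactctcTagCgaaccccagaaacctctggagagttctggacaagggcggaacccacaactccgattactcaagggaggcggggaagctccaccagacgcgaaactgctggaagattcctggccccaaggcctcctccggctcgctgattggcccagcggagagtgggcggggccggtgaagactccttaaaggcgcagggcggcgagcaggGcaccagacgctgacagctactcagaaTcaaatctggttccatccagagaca
The window of Hspa1a (chr17:34972107-34972406, minus strand) and that of Hspa1b (chr17:34959189-34959488, minus strand) were identical at 296 of 300 positions. Each held 1 pair of heat shock element units (GAANNTTC or TTCNNGAA, both strands) at the same distance from the start site, a motif found at least once in 15.1% of all windows. The Hspb1 window (chr5:135887669-135887968, plus strand) is shown with its heat shock element pairs in capitals, because Hspb1 was the member whose groups stood furthest apart among those with enough reads to test.
Hspb1: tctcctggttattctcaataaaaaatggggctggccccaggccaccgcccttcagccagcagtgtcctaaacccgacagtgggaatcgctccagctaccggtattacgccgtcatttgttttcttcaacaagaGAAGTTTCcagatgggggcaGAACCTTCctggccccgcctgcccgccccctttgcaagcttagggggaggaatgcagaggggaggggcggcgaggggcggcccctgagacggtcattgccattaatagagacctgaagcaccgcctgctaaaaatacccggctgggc
It held 2 such pairs, which 1.95% of windows matched or exceeded. Both Hsph1 windows, which overlapped, held the same 3 pairs. The overlap of 2 of these made a triple of alternating units, which was present in 0.603% of windows, and no pair was found in the Dnajb1 windows. The start site of the annotated Hsph1 transcript lay 165 and 144 bases downstream of those its windows were built on. For the Dnajb1 windows this distance was 18 and -355 bases, with a negative value meaning upstream. CpG dinucleotides, the sites of DNA methylation in mammals, numbered 24 in the windows of Mt1 and Mt2, 16 in that of Hspa1b, 15 in that of Hspa1a and 14 in that of Hspb1, against a median of 7 over all windows. These matches describe the letters of the windows, and methylation and factor binding were not analysed here.

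The libraries held 27486245 to 36312678 reads in the Hypo group and 32390194 to 39388394 in the Ctrl group. Values are the authors' normalized counts, that is, reads divided by a library's size factor. Markers of an epithelial line were high in every library (7 genes summing to 127626 to 145099 in Hypo and 138530 to 155415 in Ctrl). Marker lists of other cell types summed to far less than the epithelial list and partly differed between the groups. The sum over 4 endothelial markers was 103 to 126.9 in Hypo and 23.55 to 50.41 in Ctrl, and that over 4 fibroblast markers was 2872 to 3461 in Hypo and 2192 to 2562 in Ctrl. In the endothelial list, Cdh5 (mean 78.16 in Hypo, 16.17 in Ctrl) and Kdr (11.07 in Hypo, 1.64 in Ctrl) had the groups apart. Pecam1 (19.94 in Hypo, 16.11 in Ctrl) and Tek (1.371 in Hypo, 2.044 in Ctrl) overlapped. Most of the fibroblast sum came from Pdgfra (mean 2276 in Hypo, 2062 in Ctrl) and Col1a1 (984.9 in Hypo, 398.7 in Ctrl). The sum over 3 immune markers was 246.2 to 269.5 in Hypo and 180.2 to 277 in Ctrl, mostly from Cd14, while Ptprc, which defines leukocytes, was at 27.54 to 39.33 in Hypo and 8.151 to 11.3 in Ctrl, and Itgam at 1.967 to 4.627 in Hypo and 0 to 1.025 in Ctrl. The defining fibroblast marker Dcn was at 0.8731 to 7.869 in Hypo and 0 to 0.8549 in Ctrl, and the part of these markers in the values below was not tested. Across the 15746 genes that averaged 10 or more normalized counts, limma on the deposited transformed values called 22.8% as different between Hypo and Ctrl at an adjusted p below 0.05, 14.1% higher and 8.75% lower in Hypo.

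Most of the members were strongly expressed in both groups. Per kilobase of transcript, the highest mean levels were those of Hspa8, the constitutive cytosolic Hsp70 (20320 normalized counts per kb in Hypo, 22588 in Ctrl), and Hsp90aa1, the inducible cytosolic Hsp90 (16138 in Hypo, 16120 in Ctrl). Mt2 (12338 in Hypo, 11668 in Ctrl) and Mt1 (6638 in Hypo, 7513 in Ctrl) followed. Hsph1, an Hsp110 that exchanges nucleotide on Hsp70 (1934 in Hypo, 1986 in Ctrl), was lower per kilobase, and the Hsp40 Dnajb1 (517 in Hypo, 499.3 in Ctrl) and Hspa1b (369.4 in Hypo, 497.9 in Ctrl) lower still. Hspb1 was scarce, at 114.5 per kb in Hypo and 35.56 in Ctrl, and Hspa1a nearly silent, at 2.01 in Hypo and 0.693 in Ctrl. Among neighbours in this order, the libraries of Mt2 and Mt1 overlapped in both groups, as did those of Dnajb1 and Hspa1b. Those of Hsp90aa1 and Mt2 overlapped in Hypo and those of Hspa8 and Hsp90aa1 in Ctrl, while the other neighbours did not overlap. These levels use the whole transcript, although some members share sequence with other genes. Of stretches of 100 bases, 839 of 2295 in Hspa8 and 1354 of 2704 in Hspa1b occurred in no other gene. In Dnajb1 all 2897 were its own. The levels are therefore not strictly comparable between members, and whether shared sequence changed the order was not tested.

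Among the 8 members that passed this minimum, 1 was called by the fit over all genes, beside the 22.8% called over all genes, and nothing is read from this count because the members were chosen on the same contrast. That gene was Hspb1. In 7 of the 9 members the Hypo and Ctrl libraries overlapped, and the 2 whose libraries did not overlap were Hspb1 and Hspa1a, the member that fell below the minimum count. Over all tested genes, 25.7% had groups that did not overlap.

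**Figure D1:**
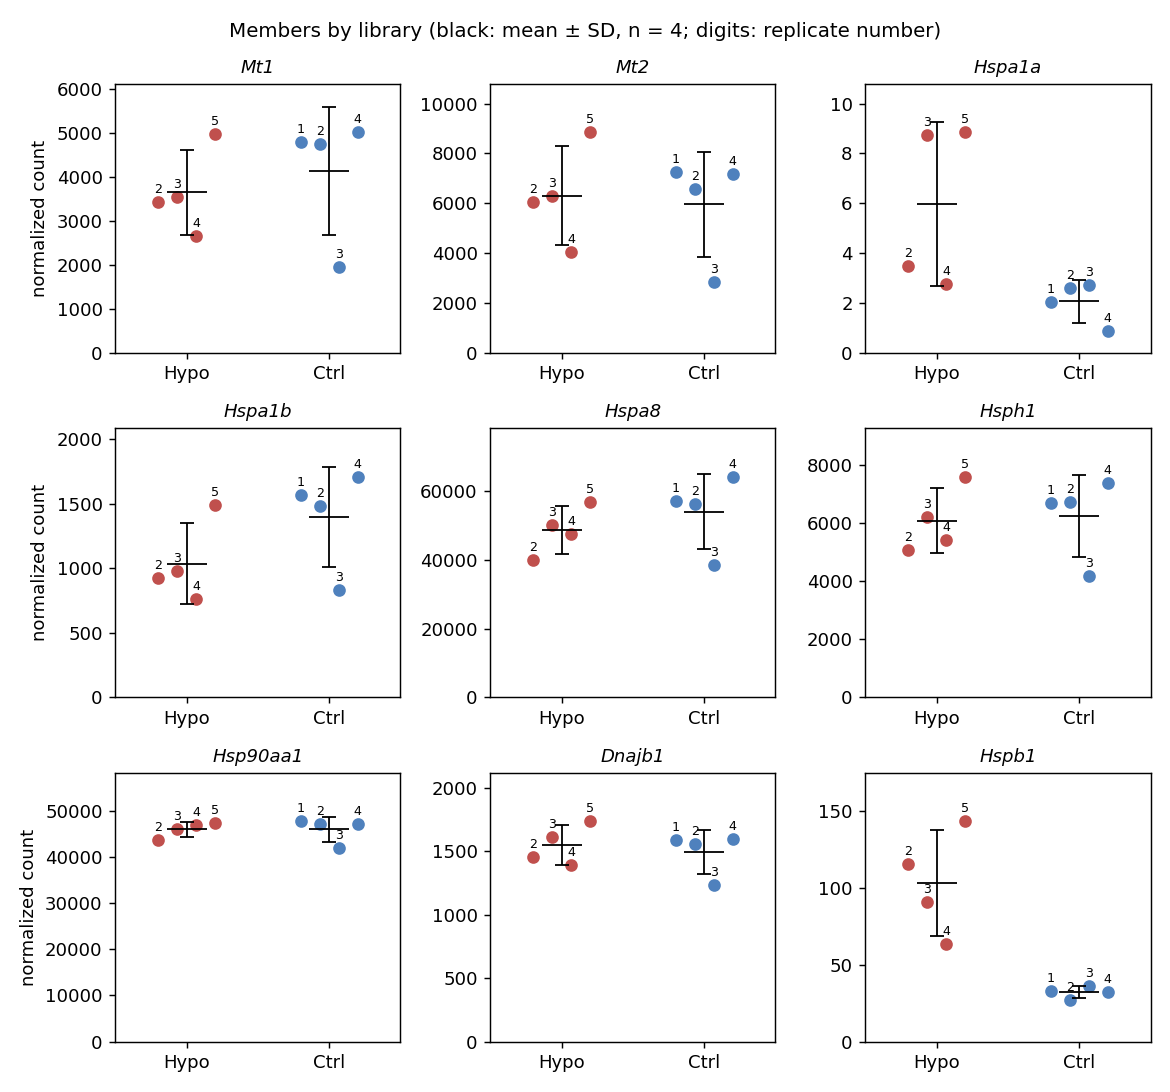
Normalized counts (y axis, linear from 0) of the 9 members in each library, Hypo in red and Ctrl in blue, with digits giving the replicate number and black bars the mean ± SD of 4 libraries. Ctrl replicate 3 is the lowest Ctrl library in 7 panels, Hypo replicate 5 the highest Hypo library in all 9, and only Hspb1 and Hspa1a have every Hypo library above every Ctrl library.

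Mt1 had 3426, 3526, 2660 and 4965 normalized counts in Hypo replicates 2 to 5, against 4793, 4743, 1951 and 5010 in Ctrl replicates 1 to 4. The groups overlapped widely, since Ctrl replicate 3 lay below every Hypo library and the other Ctrl libraries lay near or above most of them. The means were 3644 ± 962 in Hypo and 4124 ± 1454 in Ctrl (SD, n = 4 each), a ratio of 0.884, and the difference on the transformed, log2-like scale was -0.12 ± 0.25 (SE).

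Mt2 had 6035, 6293, 4035 and 8857 normalized counts in Hypo, against 7258, 6580, 2832 and 7179 in Ctrl. Hypo replicate 5 was the highest library of all and Ctrl replicate 3 the lowest, so the groups again overlapped. The means were 6305 ± 1978 in Hypo and 5962 ± 2109 in Ctrl (SD, n = 4 each), with a transformed difference of 0.11 ± 0.27 (SE). The ratio of Mt2 to Mt1 within a library was 1.52 to 1.79 in Hypo and 1.39 to 1.51 in Ctrl, which did not overlap although neither gene did so alone. This ratio was formed after the values were seen and was not tested, and the lowest Hypo value (1.517, replicate 4) and the highest Ctrl value (1.514, replicate 1) nearly touched. In reads, the pair made up 0.0209 to 0.0424% of a library in Hypo and 0.0146 to 0.0363% in Ctrl.

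An antisense gene, Gm45774, overlapped 432 exonic bases of Mt2, and 27.4% of the 100-base stretches of the Mt2 transcript also occurred in it. It had 101.8, 110.9, 50.5 and 123.9 normalized counts in Hypo, against 123, 123.4, 38.04 and 83.78 in Ctrl, so it was lowest in the same library as Mt2 and far below it. Mt1 shared no such stretch with another annotated gene. Because the strand setting of the counting is unknown here, reads of Mt2 and those of its antisense gene may have been mixed.

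Hspa1b had 921, 977, 757 and 1486 normalized counts in Hypo, against 1563, 1482, 830 and 1709 in Ctrl. Outside Ctrl replicate 3, every Ctrl library was close to or above the highest Hypo library. The means were 1035 ± 315 in Hypo and 1396 ± 389 in Ctrl (SD, n = 4 each), a ratio of 0.742 and a transformed difference of -0.35 ± 0.19 (SE), the largest negative difference among the members.

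Hspa1a was the lowest member and was not tested. Its normalized counts were 3.47, 8.73, 2.75 and 8.85 in Hypo, against 2.05, 2.61, 2.72 and 0.855 in Ctrl, which correspond to 3, 10, 3 and 9 recovered reads in Hypo and 2, 3, 3 and 1 in Ctrl. The groups did not overlap, but the lowest Hypo and the highest Ctrl library each held 3 reads and differed only through their size factors. Hspa1a and Hspa1b shared 100-base stretches with each other and with further genes (56.5% of those of Hspa1a and 49.9% of those of Hspa1b), so reads of either can match both. The 1247 stretches of Hspa1a and the 1354 of Hspa1b that were their own leave each gene countable. Whether reads matching both were left out or given to 1 gene is not stated in the sources used. If they were left out, both levels are too low. A further protein-coding gene, Gm20481, overlapped 564 exonic bases of Hspa1a on the other strand and had at most 3.47 normalized counts in Hypo and 2.05 in Ctrl.

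Hspa8 had 39927, 50146, 47512 and 56998 normalized counts in Hypo, against 57160, 56390, 38503 and 64249 in Ctrl. Ctrl replicate 3 was again the lowest library and Hypo replicate 2 the next lowest. The means were 48646 ± 7055 in Hypo and 54075 ± 10968 in Ctrl (SD, n = 4 each), with a transformed difference of -0.14 ± 0.14 (SE). Of the 100-base stretches of its transcript, 63.4% also occurred in 9 other genes, mostly processed pseudogenes. One of these, Gm15459, had 9175, 11250, 11110 and 12700 normalized counts in Hypo, against 13280, 13190, 8922 and 14870 in Ctrl. These counts placed the libraries of each group in the same order as Hspa8 did. How reads matching both gene and copy were counted, or whether they were left out, is unknown here.

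Hsph1 had 5070, 6202, 5417 and 7596 normalized counts in Hypo, against 6703, 6722, 4157 and 7360 in Ctrl. The highest library was Hypo replicate 5 and the lowest Ctrl replicate 3, so each group spanned most of the range of the other. The means were 6071 ± 1122 in Hypo and 6236 ± 1419 in Ctrl (SD, n = 4 each), with a transformed difference of -0.02 ± 0.16 (SE).

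Dnajb1, the Hsp40 that hands substrates to Hsp70, had 1457, 1611, 1389 and 1738 normalized counts in Hypo, against 1590, 1558, 1234 and 1601 in Ctrl. The groups overlapped and their means, 1549 ± 157 in Hypo and 1496 ± 175 in Ctrl (SD, n = 4 each), differed by 0.05 ± 0.08 (SE) on the transformed scale. Like Hsph1 it shared no 100-base stretch with another gene.

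Hsp90aa1 varied least, with 43723, 46130, 46830 and 47419 normalized counts in Hypo, against 47762, 47074, 41864 and 47193 in Ctrl. Its coefficient of variation was 3.53% in Hypo and 5.99% in Ctrl, while those of the metallothioneins were 26.4 to 31.4% in Hypo and 35.2 to 35.4% in Ctrl. The transformed difference was below 0.01 with an SE of 0.05. Of its 100-base stretches 53.2% occurred in 3 other genes, whose largest single value was 166.8 normalized counts.

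Hspb1 had 116, 90.8, 63.4 and 144 normalized counts in Hypo, against 32.8, 26.9, 36.2 and 32.5 in Ctrl. Every Hypo library lay above every Ctrl library, and Ctrl replicate 3, low for most other members, was the highest Ctrl library here. The means were 103 ± 34.3 in Hypo and 32.1 ± 3.84 in Ctrl (SD, n = 4 each), a ratio of 3.22. The transformed difference of 0.51 ± 0.08 (SE) understates this because the deposited scale compresses low counts: it was 1.60 on the scale log2(normalized count + 1). Of its 100-base stretches 56.3% also occurred in Hsp25-ps1 or Gm9817, genes not analysed here, so the level carries that uncertainty.

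Within the groups, most of the members moved the same way in Ctrl replicate 3 and in Hypo replicate 5. Elsewhere they moved less alike: in Hypo replicate 4 the log2 deviation was -0.79 for Mt2 and -0.85 for Hspb1, but -0.03 for Hspa8 and 0.03 for Hsp90aa1. For most members the spread within groups was larger than the distance between the group means. Relative to the mean of the other 3 Ctrl libraries, Ctrl replicate 3 stood at 0.402 for Mt1, 0.404 for Mt2, 0.524 for Hspa1b, 0.600 for Hsph1, 0.650 for Hspa8, 0.780 for Dnajb1 and 0.884 for Hsp90aa1. It was not low for Hspb1 (1.18) or Hspa1a (1.48). The median deviation of Ctrl replicate 3 over the 8 tested members was -0.68 on the log2 scale, and the deviations of Mt1 and Mt2 (-1.31 and -1.31) lay at the 0.432 and 0.438 percentiles of all tested genes in that library.

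Ctrl replicate 3 was the lowest Ctrl library in 7 of the 9 members, against 36.1% of all tested genes. Hypo replicate 5 was the highest Hypo library in 9 of 9, against 32.7% of all tested genes, and Hypo replicate 4 the lowest in 6 of 9, against 33.5%. Both of the first orders held in 7 of 9 members and in 20.1% of all genes. The members were chosen with these data in view, so these counts describe them and are not a test. Ctrl replicate 3 also stood apart more widely: 14.24% of its genes differed by more than 0.5 on the log2 scale from the mean of the other Ctrl libraries, while in the remaining 7 libraries this share was 5.05 to 11.43%.

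**Figure D2:**
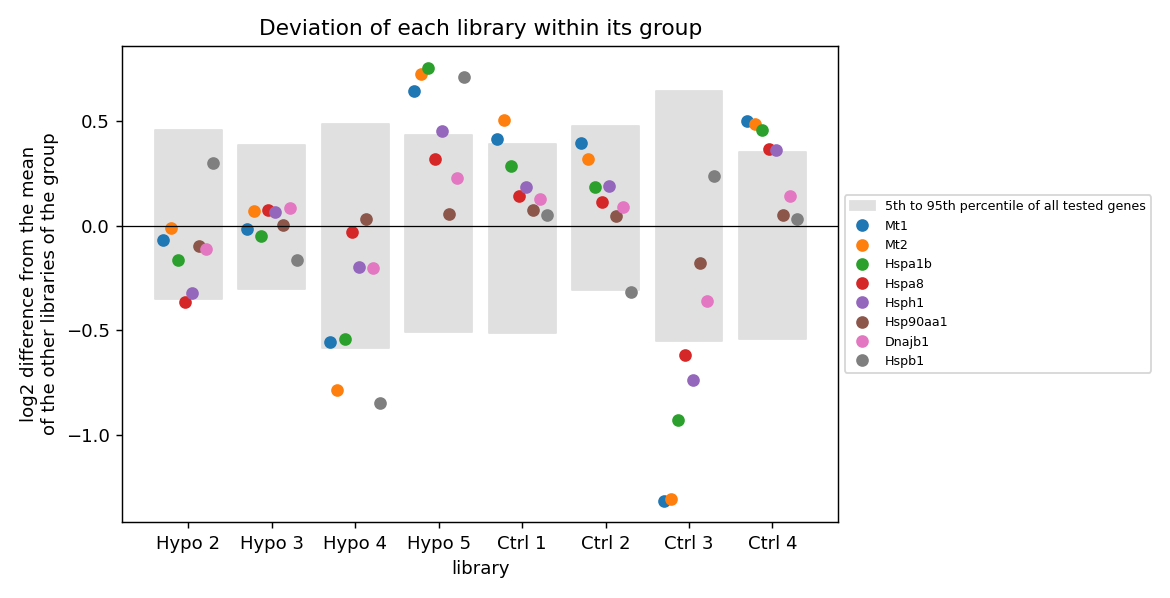
Log2 difference of each library (x axis) from the mean of the other libraries of its group (y axis) for the 8 tested members, beside a grey box for the 5th to 95th percentile of all 15746 tested genes. In Ctrl 3, Mt1 and Mt2 lie near -1.3 and Hspa1b, Hsph1 and Hspa8 also fall below the box, whereas Hspb1 lies above 0. In Hypo 5 most members lie above 0.

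Leaving out Ctrl replicate 3 moved the differences of 7 of the 8 tested members downwards. Mt1 then differed by -0.42 ± 0.13 (SE), Hspa1b by -0.54 ± 0.13 and Hspa8 by -0.29 ± 0.10, and the fit over all genes called these 3 as lower in Hypo, as it did 13.3% of all genes without that library. Mt2 differed by -0.20 ± 0.17, Hsph1 by -0.20 ± 0.10, Dnajb1 by -0.03 ± 0.06 and Hsp90aa1 by -0.04 ± 0.05, none of them called. Hspb1 stayed called as higher (0.53 ± 0.09), as were 17.4% of all genes. Both the members and the library left out were picked with these values in view, so nothing is read from these calls. When Hypo replicate 4 was left out as well, the same 4 genes were called, while over all genes 18.0% were called higher and 13.0% lower, with member differences of -0.29 ± 0.10 for Mt1, -0.44 ± 0.11 for Hspa1b, -0.28 ± 0.10 for Hspa8 and 0.61 ± 0.07 for Hspb1. Mt2, Dnajb1, Hsp90aa1 and Hsph1 changed the sign of their difference when 1 library or another was left out, as did Mt1 without Hypo replicate 4 (0.01 ± 0.26), so no direction is given for these 5 genes.

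**Figure D3:**
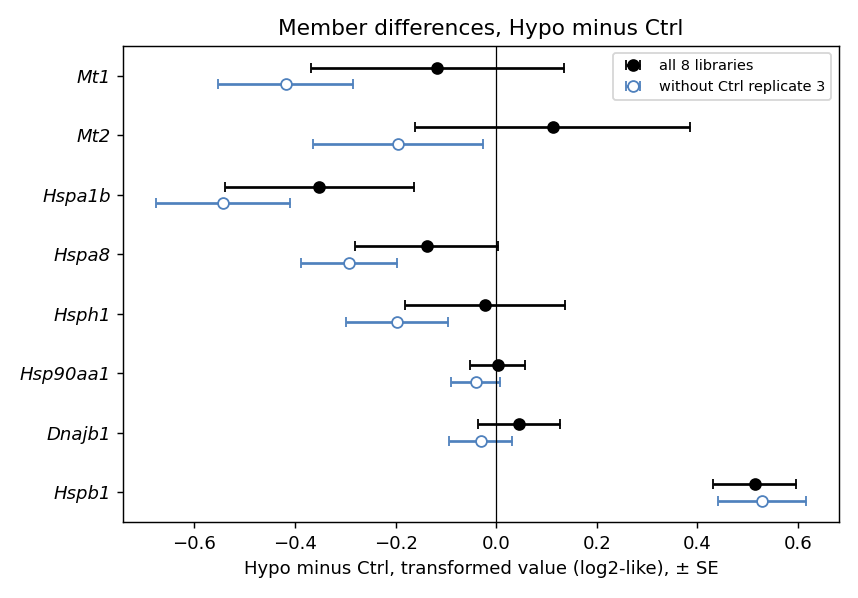
Difference between Hypo and Ctrl on the deposited transformed scale (x axis, log2-like, ± SE) for the 8 tested members, with all 8 libraries (filled) and without Ctrl replicate 3 (open). Hspb1 stays near 0.5 in both, whereas Mt1, Mt2, Hspa1b, Hspa8 and Hsph1 shift to the left without Ctrl replicate 3.

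As a description over the 8 libraries, in which all genes share a library's depth and scaling, the transformed values of Mt1 and Mt2 had a Pearson r of 0.956, and of 0.899 without Ctrl replicate 3. Mt1 and Hspa1b had an r of 0.907 (0.982 without that library), and Hspa8 and Hsph1 one of 0.948 (0.930 without it). Other pairs depended more on that library: without it the r of Mt2 and Hsp90aa1 fell from 0.739 to 0.284. That of Dnajb1 and Hsp90aa1 fell from 0.798 to 0.468. Over both groups, Hspb1 had an r of 0.018 with Mt1 and of -0.24 with Hspa8, values into which its difference between the groups also enters. Within Hypo, its log2 deviations in replicates 4 and 5 (-0.85 and 0.71) were near those of Mt2 (-0.785 and 0.73). In Hypo replicates 2 and 3 they were 0.30 and -0.16, against -0.01 and 0.07 for Mt2, and in Ctrl replicate 3 0.24 against -1.305. Hspb1 was most alike to Hspa1a, with an r of 0.787, and both of these have the groups apart, which alone raises r.

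The tested genes most like the mean standardized profile of the 7 heat shock members over the 8 libraries were Nup85 (r = 0.985), Dnajc3 (0.985), Gmppb (0.983), Clptm1l (0.979), Dnajb11 (0.978), Gcsh (0.977), Lsm8 (0.976), Txndc11 (0.976), Nup50 (0.976) and Srrt (0.973). Dnajc3, for instance, had 2975, 3515, 3023 and 3803 normalized counts in Hypo, against 3527, 3282, 2504 and 3427 in Ctrl, with the extremes again in Hypo replicate 5 and Ctrl replicate 3. For the metallothionein profile the closest were Atp5g1 (0.990), Ptdss1 (0.985), Pip4k2c (0.982), Sfn (0.982), Fen1 (0.981), Sec14l2 (0.978), Homer3 (0.978), Ubqln2 (0.978), Mlx (0.975) and Zwint (0.974). The heat shock mean gave Hspa1a, which was not tested, and Hspb1 the same weight as the other members. Their r with the remaining heat shock members was only -0.20 to 0.38 for Hspa1a and -0.26 to 0.32 for Hspb1. That mean therefore mixes unlike patterns. The genes named here were not the only ones so alike. Among protein-coding genes outside the members, without predicted and RIKEN genes, 233 had an r above 0.9 with the heat shock profile. With the metallothionein profile 251 did, and the tested genes of all kinds numbered 15746.

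The genes around the members were followed in 13 lists from textbook knowledge that exclude the members. The lists were chosen with earlier results of these data known, so their shares called are a description and not an independent test. Of the 196 different genes tested in them, 36 were called (18.4%, beside 22.8% of all genes), 25 higher and 11 lower in Hypo. The adjusted p-values below are from limma with Benjamini-Hochberg adjustment over all 15746 genes.

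Of 24 metal handling genes tested, 3 were higher and 2 lower in Hypo, and 19 did not pass. Mt3, the metallothionein best known from brain, had 107.6, 103, 80.8 and 118 normalized counts in Hypo, against 28.69, 52.15, 33.51 and 47.87 in Ctrl. Unlike Mt1 and Mt2 it rose in every Hypo library above every Ctrl library (transformed difference 0.44 ± 0.06 SE, adjusted p = 0.00041). Among zinc importers of the Slc39 family, Slc39a8 was 1.51 times as high (269.2 ± 7.78 in Hypo, 178.3 ± 7.68 in Ctrl, SD, n = 4 each, adjusted p = 0.00041 by limma). Slc39a10 was also higher (2601 ± 366.7 in Hypo, 1918 ± 113.6 in Ctrl, SD, adjusted p = 0.0040). Slc39a11 was lower by a ratio of 0.567 (700.1 ± 37.6 in Hypo, 1235 ± 55.6 in Ctrl, SD, adjusted p = 2.9e-06).

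Of the regulators of these genes, Mtf1, Hsf1, Hsf2 and Hsbp1 did not pass the test, and Hsf2bp did. Mtf1, the metal-sensing factor, averaged 1026 ± 70.7 normalized counts in Hypo and 1038 ± 66.1 in Ctrl (SD, n = 4 each; limma adjusted p = 0.90). Slc30a1, a zinc exporter that is a textbook Mtf1 target, had 669.7, 757.9, 528.9 and 886.2 in Hypo, against 827.9, 645.8, 536.1 and 683 in Ctrl, with an adjusted p of 0.78 and its lowest Ctrl value in replicate 3. Hsf1, the main heat shock factor, averaged 1829 ± 61.5 in Hypo and 1824 ± 132 in Ctrl (adjusted p = 0.96 by limma, n = 4 each), and Hsf2 1612 ± 71.9 in Hypo and 1631 ± 54.2 in Ctrl (adjusted p = 0.85). Hsbp1, which binds Hsf1, had an adjusted p of 0.37. The remaining tested gene of this list, Hsf2bp, a binding partner of Hsf2 known from the germ line, had 45.11, 34.93, 21.12 and 36.39 in Hypo, against 11.27, 12.17, 14.49 and 10.26 in Ctrl (adjusted p = 0.0027). It was the only one of the 4 tested regulators to pass, and Hsf4 and Hsf5 were below the minimum count.

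In the Hsp70 and Hsp110 family, 2 of 9 tested genes outside the members were higher in Hypo and none lower. Hspa12a, a distant Hsp70 relative, had 673.2, 564.1, 494 and 487.9 normalized counts in Hypo, against 44.06, 61.71, 55.24 and 59.84 in Ctrl. Its group means of 554.8 ± 86.2 in Hypo and 55.2 ± 7.92 in Ctrl (SD) gave a ratio of 10.05. On the transformed scale it was 1.66 ± 0.07 (SE) higher (limma, adjusted p = 2.5e-08). Hspa2, an Hsp70 needed in sperm development, was higher by a ratio of 1.51 (267.5 ± 48.8 in Hypo, 176.7 ± 20.6 in Ctrl, SD, adjusted p = 0.012). Neither had a Hypo library below a Ctrl library.

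Of 5 tested small heat shock genes outside the members, Hspb8 was higher (5873 ± 357.7 in Hypo, 5068 ± 487.1 in Ctrl, SD, n = 4 each, limma adjusted p = 0.049). Cryab, the lens crystallin that is also a chaperone, was lower (639.4 ± 62.0 in Hypo, 778.7 ± 49.3 in Ctrl, adjusted p = 0.027). Both calls were close to the threshold: that of Hspb8 was lost without any single library but Ctrl replicate 4 and that of Cryab without 5 of the 8, with adjusted p-values reaching 0.11 for Hspb8 and 0.085 for Cryab. None of the 3 other Hsp90 family genes passed, the constitutive Hsp90ab1 averaging 139193 ± 3393 in Hypo and 148137 ± 6887 in Ctrl (SD, adjusted p = 0.27) and the endoplasmic reticulum form Hsp90b1 39304 ± 2101 in Hypo and 35888 ± 3585 in Ctrl (adjusted p = 0.21).

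Of 38 DnaJ genes, the family of Dnajb1, 3 were higher and 1 lower in Hypo. Dnajc6, which encodes auxilin, the uncoating factor of clathrin vesicles, averaged 181.6 ± 27.6 in Hypo and 48.6 ± 13.8 in Ctrl (SD, n = 4 each, ratio 3.74, limma adjusted p = 1.5e-05). Dnajc12 averaged 103.4 ± 12.6 in Hypo and 41.4 ± 6.998 in Ctrl (ratio 2.50, adjusted p = 9.7e-05). Dnajc16 was lower by a ratio of 0.830 (adjusted p = 0.0093), and Dnajc10, a reductase of the endoplasmic reticulum, was higher by a ratio of 1.14 (adjusted p = 0.042), a call that was lost in 5 of the 8 fits that left out a library (Hypo replicates 2, 3 and 5 and Ctrl replicates 3 and 4, adjusted p up to 0.12).

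Cochaperones of Hsp70 and Hsp90 showed 3 lower and no higher genes among 27. These were the kinase adaptor Cdc37 (10035 ± 313.1 in Hypo, 11712 ± 492.1 in Ctrl, SD, n = 4 each, limma adjusted p = 0.0048), its relative Cdc37l1 (ratio 0.870, adjusted p = 0.014) and the steroid receptor cochaperone Fkbp5 (ratio 0.905, adjusted p = 0.047). The call of Fkbp5 was lost without any single library but Ctrl replicate 3, with an adjusted p of up to 0.14. Without Ctrl replicate 3, 7 cochaperone genes were lower in place of 3, while over all genes the share called lower also rose, from 8.75% to 13.3%.

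Among 15 chaperonins and mitochondrial chaperones, Clpx (ratio 1.17, adjusted p = 0.0089 by limma), Cct8 (ratio 1.11, adjusted p = 0.047) and Cct4 (ratio 1.10, adjusted p = 0.0497) were higher and Grpel1 (ratio 0.834, adjusted p = 0.0086) was lower in Hypo. The Cct8 call was lost without each of the 8 libraries in turn (adjusted p 0.054 to 0.12), and the Cct4 call without 6 of them, all but Hypo replicate 5 and Ctrl replicate 3 (up to 0.13). The list of classical heat-induced genes outside the members held 21 tested genes, of which 1 was higher and 1 lower. These were Hspb8 and Cryab, already counted among the small heat shock genes. Its median difference was -0.07, beside a median of 0.00 over all tested genes.

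Lists of other stress responses were followed beside the members. Of 17 genes for chaperones and folding in the endoplasmic reticulum, Creld2 was higher (1677 ± 174.7 in Hypo, 1336 ± 126.9 in Ctrl, SD, n = 4 each, limma adjusted p = 0.017) and 16 did not pass. Of 15 Nrf2-type oxidative stress genes, Nqo1, a quinone reductase, was higher (851.9 ± 48.6 in Hypo, 586.6 ± 54.3 in Ctrl, adjusted p = 0.00041). Of 18 genes of the Atf4 stress response, Phgdh, the first enzyme of serine synthesis, was lower (ratio 0.891, adjusted p = 0.043), a call lost without any single library but Hypo replicate 4 (adjusted p up to 0.13). Without Ctrl replicate 3, 6 genes of the Atf4 list were higher and none lower. Leaving that library out also gave 4 lower and 0 higher classical heat-induced genes, 4 higher and 3 lower DnaJ genes, and 2 higher and 2 lower Nrf2-type genes. Over all genes the same fit called 17.4% higher and 13.3% lower, against 14.1% higher and 8.75% lower with all libraries.

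Immediate early genes, which answer growth signals and stress within minutes, had the largest share called of the 13 lists, 12 of 24 (50%, beside 22.8% of all genes), 10 higher and 2 lower in Hypo. This list, too, was chosen with earlier results known, so its share is only described. Fos had 153.8, 198.2, 161.6 and 218.4 normalized counts in Hypo, against 67.63, 107.8, 77.88 and 113.7 in Ctrl (adjusted p = 0.0015 by limma). Btg2 was higher by a ratio of 1.51 (adjusted p = 0.0018). The 2 that were lower were Fosl2 (3890 ± 462.4 in Hypo, 5709 ± 313.6 in Ctrl, SD, n = 4 each, adjusted p = 0.00023) and Myc (4111 ± 393 in Hypo, 6070 ± 521.6 in Ctrl, adjusted p = 0.00025).

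The library pattern of the members extended to part of these lists and was turned round in one. Among the endoplasmic reticulum genes, Ctrl replicate 3 was the lowest Ctrl library in 16 of 17 and Hypo replicate 5 the highest Hypo library in 16 of 17. Ctrl replicate 3 was also the lowest in 19 of 27 cochaperones, 16 of 21 classical heat-induced genes and 17 of 24 metal handling genes, beside 36.1% of all tested genes. In the Atf4 list it was the highest Ctrl library in 17 of 18 genes, with a median deviation of 0.95 on the log2 scale, and the summed normalized counts of the list were 116890, 91401, 97670 and 92394 in Hypo, against 104785, 92858, 162286 and 85114 in Ctrl. The part of these stress genes in the low metallothionein and heat shock values of Ctrl replicate 3 was not tested. The share of reads from mitochondrial genes in that library, 2.428%, lay within the 2.352 to 2.664% of all Ctrl libraries.

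**Figure D4:**
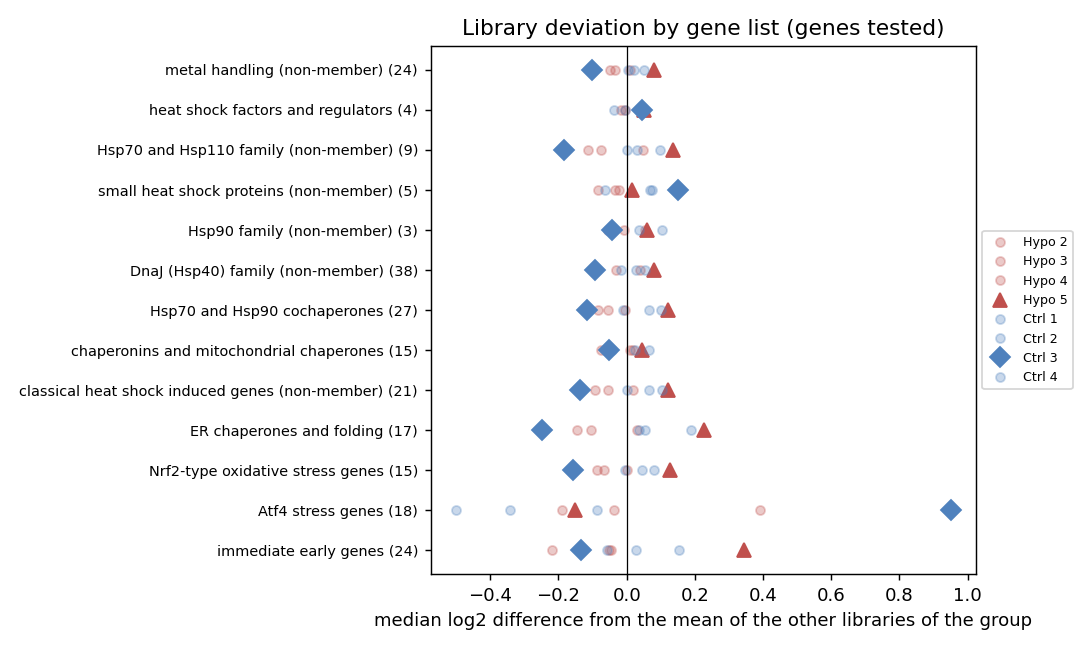
Median log2 difference of each library from the mean of the other libraries of its group (x axis) for the genes of each list (y axis, number of genes tested in brackets), with Hypo in red and Ctrl in blue, Hypo 5 as triangles and Ctrl 3 as diamonds. Ctrl 3 lies at 0.95 for the Atf4 list and at -0.25 for the endoplasmic reticulum list, and Hypo 5 lies above 0 in every list but the Atf4 list.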

How the data were processed

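Polyadenylated RNA was made into stranded libraries, aligned with STAR to GRCm38 and counted by the authors. The strand setting was not given in the sources used here. Nor do these say if replicates were separate cultures, and p-values then reflect only how far these libraries differ, which may be technical. The authors deposited normalized counts, a signal made by dividing reads by size factors, and variance-stabilized values on a log2-like scale in which a count of 0 is 7.08. The authors' deposited columns of mean, log2 fold change, Wald score and p-value, made with DESeq2, were not used. Whole reads were recovered from 100% of the normalized counts (tolerance 0.01), and depth limits precision by counting error only.

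The 23215 genes in both tables were filtered to those averaging 10 or more normalized counts over the 8 libraries (15746 genes). They were tested with limma 3.58.1 in R 4.3.3 (moderated two-sided test, trended prior variance, adjustment after Benjamini and Hochberg) on the transformed values, with all 8 libraries and no covariate, and called at an adjusted p below 0.05. Levels are normalized counts. The members and lists were chosen with earlier results of these data known. Genes named were the members, all heat shock factors and regulators, Mtf1, Slc30a1, up to 4 genes of each other list with the smallest p that passed (up to 2 where none did), and the 10 genes most alike to each profile, leaving out predicted genes, RIKEN genes and pseudogenes. Overlapping genes and pseudogene copies of the members were named after their values were seen, since they bear on the counting. Positions are those of the matching GENCODE annotation, and per-kilobase levels use the principal transcript. Alternatives were no filter, a minimum of 50, leaving out each library or both Ctrl replicate 3 and Hypo replicate 4, a replicate block, median centring, quantile normalization, log2 of the normalized count plus 1 or 5, limma without trend or with array weights, and edgeR 4.0.16 and DESeq2 1.42.0 on the recovered reads. The spread among libraries was also computed on the transformed values, an alternative chosen after seeing the data.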

Additional observations from a re-analysis of the deposited data

Results flagged for a closer look

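In 4 of the 18 groups of 4 libraries examined for the members, 1 library stood apart from the other 3, and in each it was Ctrl replicate 3 as the lowest value. The gap to the next library, as a share of the group's whole range, was 0.913 for Mt1, 0.847 for Mt2, 0.883 for Hsp90aa1 and 0.881 for Dnajb1, each above the critical value of Dixon's test for 4 libraries. That value is set so that chance passes it in about 1 in 20 groups, but the members were chosen with these libraries in view. The gaps are therefore a description and not a test of Ctrl replicate 3. The 4 genes also come from the same library, so they are not separate events. Among 72 groups of the other named list genes, 4 had a library apart: Hsf2 in Hypo replicate 2 (lowest, 0.845), Cct4 in Hypo replicate 4 (highest, 0.833), Hspb8 in Ctrl replicate 3 (lowest, 0.852) and Phgdh in Ctrl replicate 3 (highest, 0.844).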

How the results depend on the processing

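With no filter, a minimum of 50, other scales, scalings and models, the count of members called was 1, except with array weights (3) and without Ctrl replicate 3 and Hypo replicate 4 (4). It was 1 to 4 when 1 library was left out. The differences ranged from -0.42 to 0.01 for Mt1, -0.20 to 0.30 for Mt2, -0.54 to -0.24 for Hspa1b, -0.29 to -0.05 for Hspa8, -0.20 to 0.06 for Hsph1, -0.04 to 0.03 for Hsp90aa1, -0.03 to 0.09 for Dnajb1 and 0.44 to 0.59 for Hspb1 when 1 library was left out. Quantile normalization also turned Hsph1 to 0.04, and array weights turned Mt2 to -0.09. The Hspb1 difference was 1.60 with log2 of the normalized count plus 1, 1.49 with plus 5, 1.67 with edgeR and 1.67 with DESeq2. The median deviation of Ctrl replicate 3 over the members was -0.68, and -0.66 on the transformed values.

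Over all genes, 3597 were called, 1605 with the replicate block, 5952 with array weights and 2665 to 4838 without 1 library. Of these 2219 were higher (1350 with a minimum of 50, 1283 with the block, 1800 to 2743 without 1 library) and 1378 lower (322 with the block, 2673 with array weights, 852 to 2095 without 1 library). Quantile normalization gave 1818 higher and 1962 lower, and no filter 3309 higher and 1370 lower.

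With the replicate block, the counts fell to 1 in the Hsp70 list, 0 in the small heat shock list, 2 in the DnaJ list, 0 in the cochaperone list, 1 in the chaperonin list, 0 in the classical heat-induced list, 0 in the endoplasmic reticulum list, 0 in the Atf4 list and 6 in the immediate early list, and 14 of the 27 named calls were lost. Replicate numbers are shared by Hypo and Ctrl only for 2, 3 and 4, and the same-numbered libraries had correlations of -0.11, -0.21 and -0.17. In number order, Hypo replicates 2 to 5 against Ctrl replicates 1 to 4 had -0.21, 0.20, 0.40 and 0.52. Such correlations cannot show whether libraries were prepared in pairs, and the main fit assumed no pairs. With array weights the counts were 4 (Hsp70), 4 (small heat shock), 12 (DnaJ), 8 (cochaperones), 7 (classical), 3 (endoplasmic reticulum), 5 (Nrf2) and 3 (Atf4). Without Ctrl replicate 3 and Hypo replicate 4 they were 4 (Hsp70), 5 (small heat shock), 9 (DnaJ), 5 (cochaperones), 2 (chaperonins), 7 (classical), 3 (endoplasmic reticulum), 4 (Nrf2) and 7 (Atf4). With quantile normalization they were 1 (Hsp90), 8 (DnaJ), 5 (cochaperones), 3 (endoplasmic reticulum), 2 (Nrf2) and 0 (Atf4). A minimum of 50 gave 0 of 3 tested heat shock regulators, since Hsf2bp fell below that minimum, 1 small heat shock gene and 1 classical gene. No filter gave 2 of 6 tested regulators, 2 chaperonins and 2 Atf4 genes. Median centring gave 1 small heat shock gene, 2 chaperonins, 1 classical gene and 2 Atf4 genes, limma without trend 1 small heat shock gene, 2 chaperonins and 1 classical gene, and DESeq2 2 Atf4 genes. Leaving out 1 library gave 5 to 6 metal handling genes, 1 to 1 regulators, 2 to 3 Hsp70 genes, 0 to 3 small heat shock genes, 0 to 0 Hsp90 genes, 3 to 7 DnaJ genes, 2 to 7 cochaperones, 2 to 3 chaperonins, 0 to 4 classical genes, 1 to 2 endoplasmic reticulum genes, 1 to 4 Nrf2 genes, 0 to 6 Atf4 genes and 11 to 14 immediate early genes. Of 679 values of single list genes under these alternatives, 587 kept their sign and their side of the threshold, 77 lost a call, 1 gained one and 14 changed sign without being called in either fit. Of 160 values of the members, 21 changed sign. The cause of these changes was not tested.

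With 4 libraries a group, small differences of Mt1, Mt2 and Hspa1b lie within the spread between libraries, Hspa1a rests on 1 to 10 reads a library, and near-identical copies limit Hspa1a, Hspa1b, Hspa8, Hsp90aa1 and Hspb1. No cells without SKL2001 and no heated or metal-treated cells were analysed here.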
